A study of Mus musculus with 9 samples.

Results

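The cells described here are the fibroblasts of 1 culture system that held the most and the fewest transcripts of Acta2 and Tagln. Acta2 encodes smooth muscle alpha-actin and Tagln encodes transgelin, an actin-binding protein also called SM22 alpha. In each of the 6 single-cell RNA libraries of Experiment 2, the UMIs (unique molecular identifiers, 1 per captured transcript) of both genes were summed in every cell and divided by the cell's total. The 25% of cells with the highest value were called high and the 25% with the lowest value low. This gave 6046 cells, 3023 high and 3023 low, of 12103 cells kept by a filter (10000 UMIs or more, no more than 10% of them mitochondrial). Experiment 2 held 46397 barcodes before that filter, and the whole series of 9 libraries held 50106.

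All cells were NIH3T3-CG, which the labels give as a mouse embryonic fibroblast line, released from plates with trypsin and profiled with a 10x Genomics 3' kit. SAG, a Smoothened agonist that switches on Hedgehog signalling, is the treatment the labels name. Experiment 2 had 3 libraries labelled Dox, at 0, 19 and 30 h of SAG, and 3 labelled no Dox at the same times. Experiment 1 had 3 libraries at 0, 17 and 30 h of SAG, and its labels are silent on Dox. What Dox does in this line is not given, and each condition had 1 library, so the 6 libraries of Experiment 2 served as 6 paired measurements of high against low cells. The labels do not describe the libraries as separate cultures, and p-values here measure only the spread between these libraries. NIH3T3 is an immortalised line grown on plastic, and a high cell is defined by transcripts alone, with no measure of protein, stress fibres or contraction.

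Acta2 and Tagln are textbook targets of serum response factor (SRF) and its myocardin-related coactivators. These coactivators bind monomeric actin in the cytoplasm and reach the nucleus when actin assembles into filaments, so genes of the actin cytoskeleton are tied to its state. In fibroblasts, Acta2 in stress fibres marks the myofibroblast state of wound repair and fibrosis, which TGF-beta and mechanical tension promote. SRF binds the CArG box, a DNA element that opens with CC, goes on with a run of A and T letters and closes with GG. Genes of mitosis carry other elements near their start, the CCAAT box bound by NF-Y and the cell-cycle genes homology region (CHR, TTTGAA).

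Promoters of 6 genes on which the results turn are shown, with the elements found in them. The windows reach from 250 bases before to 50 bases after the annotated start, 5' to 3' on the gene's strand, from RefSeq on GRCm38.p6. They are Acta2 at chr19:34255324-34255623 (minus strand), Myl9 at chr2:156775214-156775513 (plus strand), Cnn2 at chr10:79988350-79988649 (plus strand), Actg1 at chr11:120348446-120348745 (minus strand), Cdc20 at chr4:118437294-118437593 (minus strand) and Hmmr at chr11:40733388-40733687 (minus strand). Acta2 is a gene of the rule, Myl9, Cnn2 and Actg1 were among the largest rises, and Cdc20 and Hmmr were among the largest falls in high cells. Capitals mark GGAATG (the motif of TEAD factors) in Acta2, a CArG box in Myl9, Cnn2 and Actg1, and CCAAT (or its complement ATTGG) and TTTGAA in Cdc20 and Hmmr.
Acta2: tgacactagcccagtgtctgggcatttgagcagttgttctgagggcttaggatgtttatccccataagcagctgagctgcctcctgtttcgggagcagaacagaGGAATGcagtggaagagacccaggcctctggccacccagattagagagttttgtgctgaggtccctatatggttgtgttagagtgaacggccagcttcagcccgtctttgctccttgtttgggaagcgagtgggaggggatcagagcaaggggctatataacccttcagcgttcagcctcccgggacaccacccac
Myl9: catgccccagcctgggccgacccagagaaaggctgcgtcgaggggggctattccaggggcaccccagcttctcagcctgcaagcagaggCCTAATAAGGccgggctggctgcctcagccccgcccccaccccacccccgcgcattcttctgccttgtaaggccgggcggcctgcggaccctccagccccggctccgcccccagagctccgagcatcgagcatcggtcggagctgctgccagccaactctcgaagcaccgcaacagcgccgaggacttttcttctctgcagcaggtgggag
Cnn2: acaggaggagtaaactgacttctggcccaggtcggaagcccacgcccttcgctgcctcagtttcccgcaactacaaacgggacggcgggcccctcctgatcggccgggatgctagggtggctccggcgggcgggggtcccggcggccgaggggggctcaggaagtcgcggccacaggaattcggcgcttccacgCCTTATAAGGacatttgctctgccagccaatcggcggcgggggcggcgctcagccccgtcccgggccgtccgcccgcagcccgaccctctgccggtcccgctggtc
Actg1: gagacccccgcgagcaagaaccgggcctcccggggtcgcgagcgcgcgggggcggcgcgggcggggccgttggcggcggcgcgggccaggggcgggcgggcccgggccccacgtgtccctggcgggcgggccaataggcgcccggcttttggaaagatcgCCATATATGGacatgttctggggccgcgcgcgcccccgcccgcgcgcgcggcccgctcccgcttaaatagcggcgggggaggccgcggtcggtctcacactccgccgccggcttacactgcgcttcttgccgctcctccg
Cdc20: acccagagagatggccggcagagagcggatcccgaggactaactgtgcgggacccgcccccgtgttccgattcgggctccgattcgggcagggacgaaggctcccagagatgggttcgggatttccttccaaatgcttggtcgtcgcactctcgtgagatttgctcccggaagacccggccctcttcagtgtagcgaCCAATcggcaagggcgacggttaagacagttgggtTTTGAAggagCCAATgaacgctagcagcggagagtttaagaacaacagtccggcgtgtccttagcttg
Hmmr: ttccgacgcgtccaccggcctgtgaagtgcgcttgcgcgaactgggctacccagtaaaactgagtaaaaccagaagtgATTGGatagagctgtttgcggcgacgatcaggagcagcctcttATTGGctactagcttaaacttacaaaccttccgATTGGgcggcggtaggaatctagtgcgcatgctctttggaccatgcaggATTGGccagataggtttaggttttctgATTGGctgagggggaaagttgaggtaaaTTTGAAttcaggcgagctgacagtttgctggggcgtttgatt
The CArG box lay at position -161 in Myl9, -56 in Cnn2 and -90 in Actg1, counted from the annotated start to its first base. Acta2 had no exact CArG run in its window. Its stretches ccctatatgg and ccttgtttgg come near, with a C or a G inside the run of A and T letters. Among the 14 largest rises, 11 had a window, and the box was in 4 of these. The search took CC, 6 letters that were each A or T, and GG, which reads alike on both strands, and found it in 14.2% (16 of 113) of the windows of genes at least 1.5-fold higher in high cells. Among genes at least 1.5-fold lower it was in 1.67% (2 of 120), and among all tested genes with a window in 1.58% (147 of 9281). TTTGAA on either strand was in 16.8% of the windows of the higher genes, in 57.5% (69 of 120) of those of the lower genes and in 14.1% of all tested. CCAAT on either strand was in 38.1%, 70.0% and 44.1% in the same order. GGAATG on either strand was in 23.9% of the higher, 12.5% of the lower and 14.1% of all tested windows. None of these shares was tested, a match is not a binding site, and a window without one says only that these letters are not in it.

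The values that chose the cells are given as a description. In Dox libraries, the lowest value of a high cell, in Acta2 and Tagln UMIs per 10000 UMIs, was 4.18 at 0 h, 3.20 at 19 h and 5.39 at 30 h. In no Dox libraries it was 3.43, 3.89 and 3.49. The next cell outside the high cells lay at 4.13, 3.20 and 5.39 with Dox and at 3.42, 3.89 and 3.49 without. The highest value of a low cell was 0.513, 0.605 and 0.919 with Dox and 0.498, 0.684 and 0.633 without. Just outside the low cells lay 0.514, 0.605 and 0.920 with Dox and 0.499, 0.685 and 0.635 without. High and low cells are the ends of a ranking divided at a fixed share of cells. In median, high cells held 8.81, 6.74 and 10.7 per 10000 UMIs with Dox and 6.50, 6.66 and 7.03 without, at 0, 19 and 30 h. Low cells held 0.252, 0.317 and 0.539 with Dox and 0.195, 0.306 and 0.328 without. Acta2 gave 95608 UMIs in all high cells and 1811 in all low cells, and Tagln gave 35839 in high and 1789 in low cells.

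**Figure D1:**
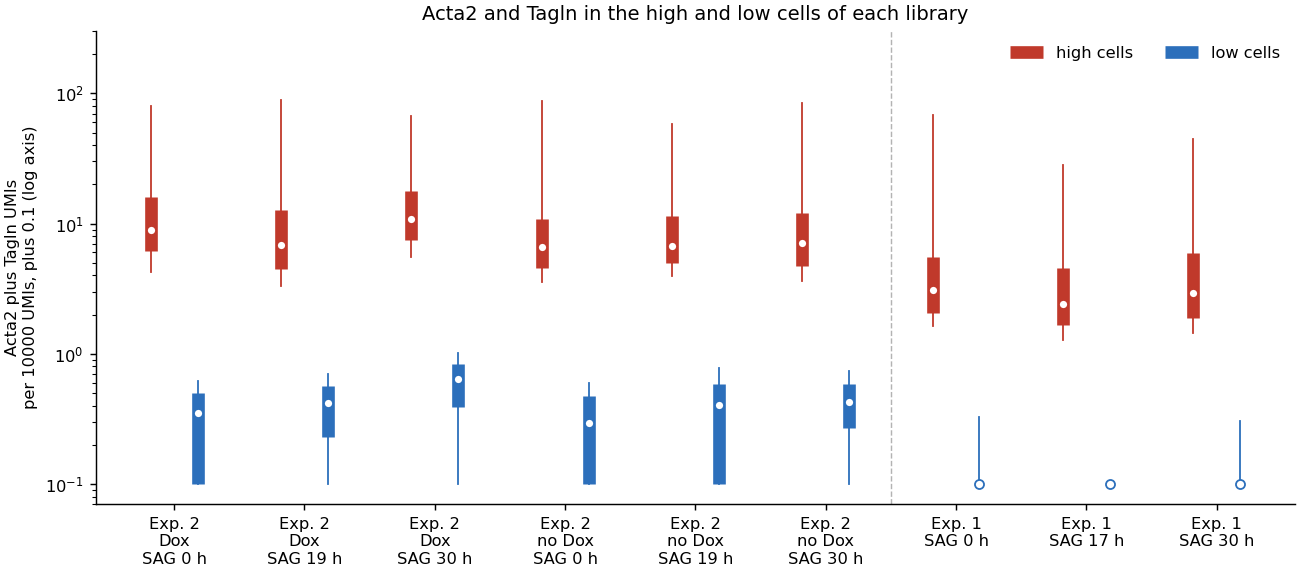
Acta2 plus Tagln UMIs per 10000 UMIs of a cell (plus 0.1, log axis) in high (red) and low (blue) cells of each library, where the white dot is the median over cells, the thick bar the range from the 25% to the 75% point and the thin line the full range. High medians lay between 6.50 and 10.7 in Experiment 2 and between 2.31 and 2.99 in Experiment 1, whose low cells had a median of 0.

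The libraries of Experiment 2 held 72645052 to 198610010 UMIs over all barcodes, and the kept cells had a median of 29140 to 49169 UMIs. The no Dox library at 19 h stood apart, with 24730 barcodes at a median of 4062 UMIs before the filter, where the others had 2649 to 8027 barcodes. Any pair of libraries shared at most 5 kept barcodes. Median UMIs of high minus low cells were 5703, 1064 and -2565 with Dox and 3320, -1131 and -1327 without, so depth had no common direction. The fibroblast label fitted both ends: 2765 to 7724 CPM (UMIs relative to the plain total of the summed cells) were summed over fibroblast markers in high cells and 2561 to 7764 in low cells. Epithelial markers summed to at most 0.622 CPM in high and 1.13 CPM in low cells, with Cdh1 and Epcam at 0. Endothelial markers lay at 0.0937 to 1.21 CPM in high and 0.355 to 1.71 CPM in low cells. Leukocyte markers reached 8.81 to 22.2 CPM in high and 6.57 to 17.0 CPM in low cells and were higher in high cells in 6 of 6 libraries, most of it Lyz2, with Cd3e and Adgre1 at 0. Smooth muscle and myofibroblast markers other than the 2 genes of the rule summed to 19.0 to 43.7 CPM in high and 13.4 to 35.1 CPM in low cells, higher in 6 of 6 libraries. Within that list Myh11 gave 21 UMIs in all high cells and 14 in all low cells, Cnn1 gave 28 and 32, Des 564 and 405, Smtn 2013 and 2331, Actg2 840 and 69 and Lmod1 367 and 58. The remaining marker lists but one were higher in high cells in 2 to 5 of 6 libraries. Pericyte markers summed to 6.56 to 25.1 CPM in high and 5.84 to 27.7 CPM in low cells, skeletal and cardiac muscle markers to 6.23 to 8.08 and 5.56 to 8.23 CPM, adipocyte markers to 0.750 to 3.30 and 0.702 to 3.32 CPM, and neuron and glia markers to 4.26 to 11.4 and 3.57 to 10.5 CPM. Chondrocyte and osteoblast markers summed to 15.1 to 91.8 CPM in high and 17.9 to 130 CPM in low cells, higher in high cells in 1 of 6 libraries.

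Acta2 and Tagln went together when only one of them was used to choose the cells. When Acta2 alone divided the cells, Tagln was at 465, 206 and 220 CPM (here and below scaled by edgeR's TMM factors unless stated) in Acta2-high cells with Dox at 0, 19 and 30 h, against 53.8, 34.2 and 31.4 CPM in Acta2-low cells. Without Dox it was at 435, 329 and 176 CPM, against 79.2, 79.1 and 45.8 CPM. No Acta2-low sum reached an Acta2-high one, and the log2 fold change was 2.48 (SE 0.12, adjusted p = 7.57e-08, edgeR quasi-likelihood test with library as a term, Benjamini-Hochberg over all genes). When Tagln alone divided the cells, Acta2 was at 793, 467 and 740 CPM in Tagln-high cells with Dox, against 51.3, 55.2 and 78.9 CPM in Tagln-low cells. Without Dox it was at 675, 571 and 583 CPM, against 82.5, 91.7 and 93.4 CPM. The log2 fold change was 3.06 (SE 0.11, adjusted p = 4.48e-12), again with no overlap. Cell by cell, after thinning each to 10000 UMIs, Pearson's r of the log values of both genes was 0.62, 0.48 and 0.50 with Dox and 0.49, 0.42 and 0.33 without. These points are cells of 1 library that share its depth, and r is given as a description only.

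Between high and low cells, 1452 of 11954 tested genes were higher in high cells (12.1%) and 917 were lower (7.67%), at an adjusted p under 0.05 with both genes of the rule left out of the counts and library totals. Scaled by plain library totals in place of TMM, 1182 were higher and 1266 lower, and with DESeq2 1132 were higher and 413 lower. At 1.5-fold or more, 156 were higher (1.31%) and 157 lower (1.31%). The ranges of the 6 high and 6 low values did not overlap for 125 genes (1.05%). Without library as a term, 35 genes were higher and 43 lower, and with cells thinned to 10000 UMIs 691 were higher and 341 lower. The rises were led by genes of the contractile apparatus and the actin cytoskeleton, and the falls by genes of mitosis.

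**Figure D2:**
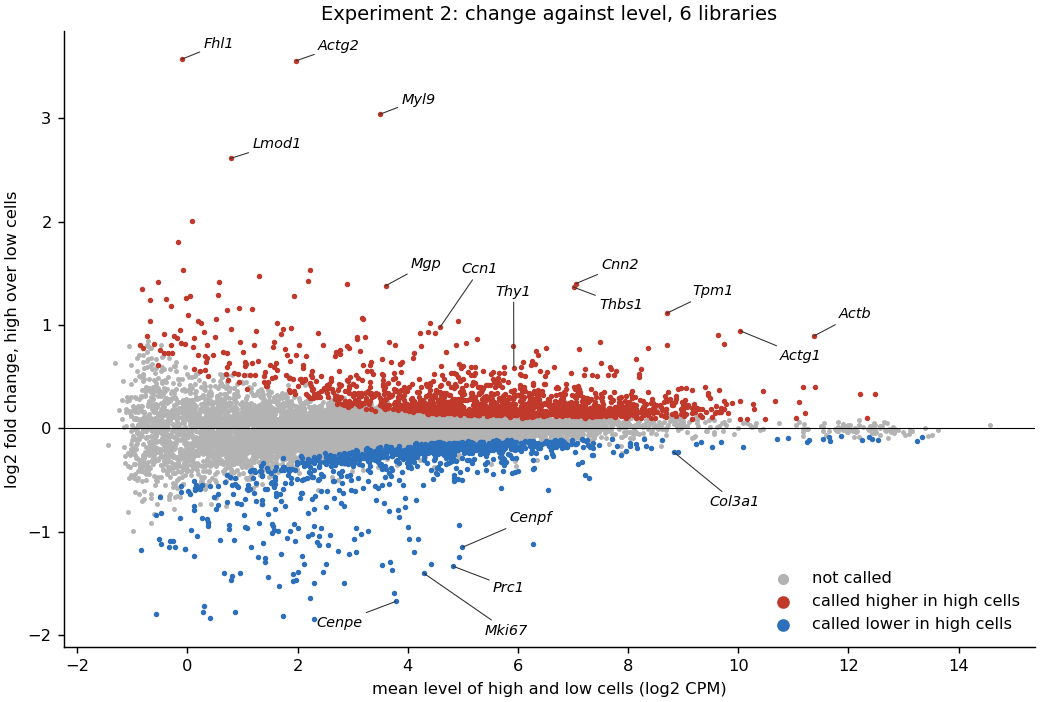
Log2 fold change of high over low cells against the mean log2 CPM for each of the 11954 genes tested in Experiment 2, with genes higher in high cells in red, lower ones in blue and those that did not pass the test in grey. Contractile and actin genes such as Myl9 (3.04) and Actb (0.89) are labelled at the upper edge and mitotic genes such as Cenpe (-1.67) at the lower edge.

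The contractile genes rose together. Of 20 genes in the contractile list, 14 were tested, of which 11 were higher (against 12.1% of all genes) and 1 lower, with a median log2 fold change of 0.59 where the median over all tested genes was -0.0039. Myl9, the regulatory light chain of smooth muscle and non-muscle myosin, had 11.3, 19.5 and 33.2 CPM (lowest, median and highest library) in high cells, against 1.34, 2.01 and 4.07 CPM in low cells, a rise of 3.04 in log2 units (adjusted p = 5.65e-10, SE 0.10). The groups did not overlap, and the mean over libraries was 21.4, 6.43, 3.67 and 2.60 CPM, here without the TMM factors, over 4 equal groups of cells from the highest to the lowest. Tpm1, a tropomyosin that lies along the actin filament, had 495, 579 and 650 CPM in high cells, against 194, 272 and 304 CPM in low cells, a log2 rise of 1.11 (SE 0.05, adjusted p = 6.88e-09), again without overlap. Myl6, the essential myosin light chain, had 799, 1034 and 1233 CPM in high cells, against 448, 511 and 720 CPM in low cells (log2 0.90, SE 0.04, adjusted p = 1.78e-08). Other members rested on fewer molecules. Actg2, the gamma actin of smooth muscle, gave 840 UMIs in all high cells and 69 in all low cells (log2 3.56, SE 0.19, adjusted p = 6.65e-08), and Lmod1, a leiomodin that nucleates smooth muscle actin filaments, gave 367 and 58 UMIs (log2 2.61, SE 0.24, adjusted p = 7.6e-06). In the low sums Actg2 lay at 0.155 to 0.819 CPM and Lmod1 at 0 to 0.962 CPM, here without the TMM factors. Both passed the low-count filter through their level in high cells, so that filter favoured a rise. The 11 higher genes include both, and their calls add no separate support. Smtn, encoding smoothelin, was the member that fell, by 0.28 on the log2 scale (adjusted p = 0.0179). Mylk, the myosin light chain kinase, also chosen after its value was seen, was at log2 0.12 (adjusted p = 0.259). The actin genes are near-identical over their coding parts, so reads could be divided between Acta2, Actg2, Actb and Actg1 in ways these counts do not show.

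Genes that SRF and its coactivators are known to control, and other actin cytoskeleton genes, rose in the same cells. In this list 29 of 36 tested genes were higher (against 12.1% of all genes) and 0 lower, with a median of 0.29. Cnn2, an actin-binding calponin, had 164, 180 and 253 CPM in high cells, against 53.5, 72.1 and 90.03 CPM in low cells, a log2 rise of 1.40 (SE 0.06, adjusted p = 5.67e-09) without overlap. Actb, the beta actin of non-muscle cells, had 2587, 3528 and 4005 CPM in high cells, against 1108, 1884 and 2484 CPM in low cells (log2 0.89, SE 0.05, adjusted p = 1e-07), and Actg1, its gamma counterpart, had 1109, 1415 and 1570 CPM, against 540, 765 and 841 CPM (log2 0.94, SE 0.04, adjusted p = 8.71e-09). Neither gene's groups overlapped. Tgfb1i1, the focal adhesion adaptor Hic-5, had 36.2, 41.8 and 54.4 CPM in high cells, against 19.5, 23.2 and 31.0 CPM in low cells (log2 0.83). Srf itself had 3.97, 5.28 and 6.13 CPM in high cells, against 2.43, 3.31 and 3.93 CPM in low cells, a log2 rise of 0.62 (SE 0.13, adjusted p = 0.0051) without overlap. Its coactivator genes, chosen after their values were seen, were Mrtfa (log2 0.15, adjusted p = 0.108) and Mrtfb (log2 0.10, adjusted p = 0.246), neither past the test, and Myocd gave 2 UMIs in high and 1 in low cells. Among genes named after their values were seen, the filamin Flna was at log2 0.84, vinculin Vcl at 0.75, the zyxin gene Zyx at 0.53 and the LIM protein gene Fhl1, with 198 UMIs in high and 15 in low cells, at 3.57 (SE 0.44, adjusted p = 0.000108). Fhl1 lay at 0 to 0.321 CPM in the low sums, without the TMM factors, and passed the low-count filter through its high cells. The 29 higher genes include Fhl1, and its call adds no separate support.

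Targets of YAP and TEAD, which respond to cell spreading and tension, were higher in 12 of 21 tested members and lower in 1, with a median of 0.26. List counts in this paragraph are to be read against the 12.1% higher and 7.67% lower of all genes. Nexn, an actin-filament binding protein, had 22.6, 27.6 and 29.7 CPM in high cells, against 13.3, 14.4 and 14.9 CPM in low cells (log2 0.93). Ccn1, a matricellular immediate early protein, had 27.5, 31.9 and 36.5 CPM in high cells, against 9.97, 15.5 and 23.5 CPM in low cells (log2 0.98, SE 0.09, adjusted p = 9.94e-06) without overlap. Amotl2, an angiomotin that binds YAP, rose by 0.78 (adjusted p = 2.06e-06), and Ccn2, named after its value was seen, by 1.42 (SE 0.19, adjusted p = 0.000177). In the TGF-beta list, 9 of 22 tested genes were higher and 1 lower, with a median of 0.18. Thbs1, the matricellular glycoprotein thrombospondin-1, had 114, 147 and 312 CPM in high cells, against 39.3, 55.4 and 139 CPM in low cells (log2 1.37, SE 0.11, adjusted p = 2.32e-06), with ranges that overlapped over libraries. Pmepa1, an inhibitor in the TGF-beta pathway, rose by 0.54. Among the largest rises that no list held, Vgll3, a cofactor of TEAD, had 18.9, 24.0 and 31.8 CPM in high cells, against 9.15, 11 and 23.0 CPM in low cells (log2 0.93). Mustn1, which encodes a small nuclear protein of muscle and bone, was at 25.8, 27.7 and 37.2 CPM in high cells, against 12.1, 14.9 and 21.9 CPM in low cells (log2 0.92). 

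Matrix genes were called in part, and their counts are to be read against the 12.1% higher and 7.67% lower of all genes. Of 28 tested fibrillar matrix genes, 15 were higher and 1 lower, with a median of 0.24. Col1a2 had 1122, 1816 and 2414 CPM in high cells, against 819, 1557 and 2129 CPM in low cells (log2 0.26, adjusted p = 0.000247), and Col1a1 had 247, 402 and 531 CPM, against 213, 361 and 431 CPM (log2 0.23, adjusted p = 0.00107). These chains of type I collagen differed more between libraries than between high and low cells. Col3a1, the type III collagen chain, was the member that fell, at 315, 417 and 563 CPM in high cells and 343, 512 and 623 CPM in low cells (log2 -0.23, adjusted p = 0.00172). Sparc, a collagen-binding protein, rose by 0.40 (adjusted p = 6.86e-06), and Fn1, the fibronectin gene, chosen after its value was seen, was at 0.04 (adjusted p = 0.5). In basement membrane genes 7 of 13 were higher, with the type IV collagen genes Col4a1 at 0.51 and Col4a2 at 0.42, a pair that lie head to head in the genome. Proteases and their inhibitors had 5 of 14 higher and 1 lower, with the metalloproteinase inhibitor Timp1 at 0.41. The largest rises also held Cemip, which degrades hyaluronan (log2 1.39), Mgp, the matrix Gla protein that inhibits calcification (log2 1.38), Aldh1a1, which makes retinoic acid (log2 1.06), and Gask1b, a Golgi protein (log2 1.04). Of these, the ranges of high and low cells overlapped over libraries for Cemip, Mgp and Aldh1a1 and not for Gask1b. Thy1, a fibroblast surface glycoprotein, had 19.2, 70.5 and 148 CPM in high cells, against 9.37, 48.7 and 111 CPM in low cells (log2 0.59, adjusted p = 1.28e-05).

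**Figure D3:**
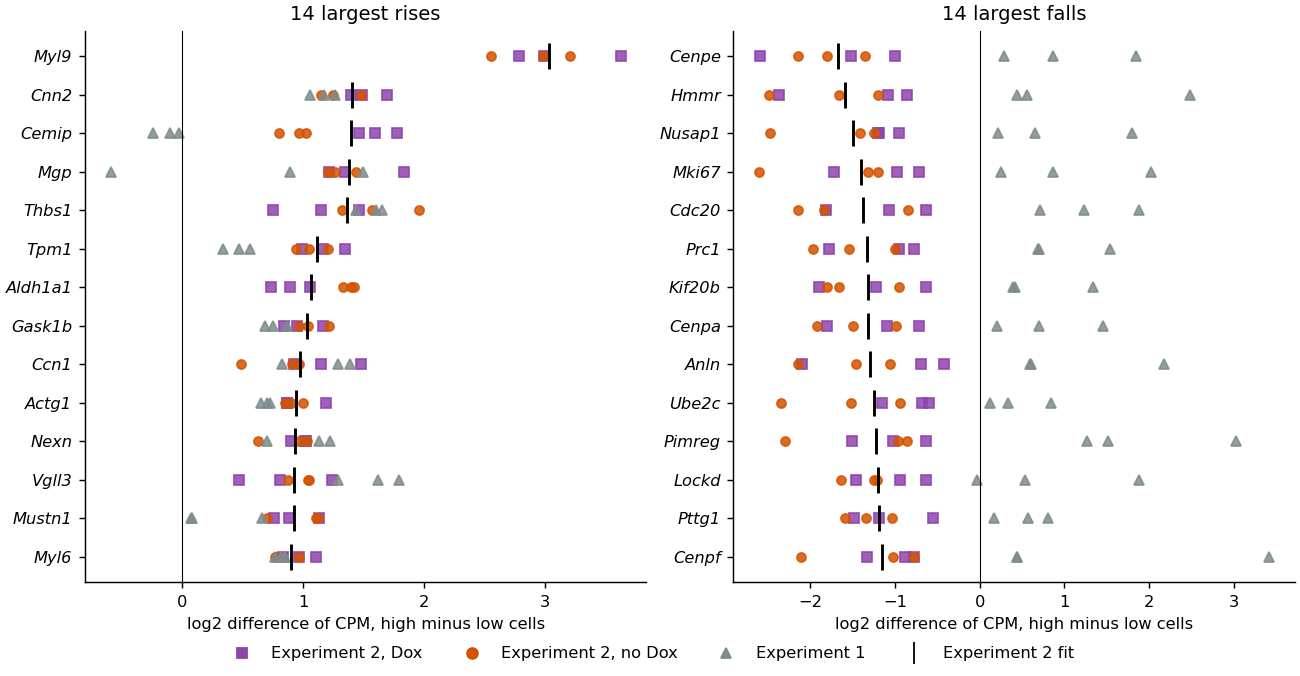
Log2 difference of high minus low cells in each library for the 14 largest rises (left) and 14 largest falls (right), with Dox libraries as purple squares, no Dox libraries as orange circles, Experiment 1 as grey triangles and the fitted change of Experiment 2 as a black tick. All 6 libraries of Experiment 2 lie on the same side of 0 for every gene, as the naming rule required, and for the mitotic falls the Experiment 1 triangles lie on the other side, as for Cenpe at -1.67 in Experiment 2 and 0.81 in Experiment 1. High cells of Experiment 1 were deeper than its low cells, and its G2 to M rise shrank within depth classes and with thinned cells.

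Mitotic genes were lower in high cells. Of 36 tested genes active from G2 to M phase, 32 were lower (against 7.67% of all genes) and 0 higher, with a median of -1.16. The median over the list was -1.46, -0.59 and -0.75 with Dox and -1.26, -0.95 and -2.09 without, at 0, 19 and 30 h, below 0 in each library. Cenpe, a kinesin of the kinetochore, had 3.07, 6.78 and 8.41 CPM in high cells, against 15.6, 19.7 and 34.6 CPM in low cells (log2 -1.67, SE 0.14, adjusted p = 3.92e-06). Hmmr, a spindle-associated hyaluronan receptor, had 4.54, 5.68 and 9.89 CPM in high cells, against 10.7, 23.8 and 26.4 CPM in low cells (log2 -1.59, SE 0.17, adjusted p = 3.82e-05). Mki67, which encodes the proliferation antigen Ki-67, had 5.96, 11 and 13.9 CPM in high cells, against 22.9, 26.8 and 36.7 CPM in low cells (log2 -1.40, SE 0.18, adjusted p = 0.000123). The groups did not overlap for these 3 genes. Cdc20, an activator of the anaphase-promoting complex, had 5.04, 6.42 and 11.8 CPM in high cells, against 11.5, 19.6 and 25.8 CPM in low cells (log2 -1.37, SE 0.17, adjusted p = 9.03e-05), with a slight overlap. Most of the fall lay at the low end of the range. Mki67 averaged 10.9, 13.5, 14.4 and 29.0 CPM without the TMM factors over the same 4 groups, and Cenpe 6.50, 9.32, 11.9 and 21.6. Of the 4 members that did not pass the test, Bub3 was at 0.10, Tubb4b at -0.15, Cks1b at -0.17 and Cdk1 at -0.35, and these are named because they are the exceptions.

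Cells rich in mitotic transcripts were counted as well. Thinned to 10000 UMIs, cells with 20 or more UMIs of the G2 to M list made up 3.32%, 4.55% and 2.88% of high cells with Dox, against 6.65%, 5.38% and 6.28% of low cells. Without Dox they made up 3.46%, 4.75% and 0.978% of high cells, against 7.98%, 8.44% and 8.61% of low cells. High cells had the lower share in 6 of 6 libraries, at a threshold chosen after the values were seen. At 10 UMIs they had it in 5 of 6, the exception being the Dox library at 19 h, with 7.04% of high and 6.63% of low cells. At a threshold of 3 UMIs the share was 54.2% ± 11.8 in high and 53.3% ± 14 in low cells (SD, n = 6 each), higher in high cells in 3 libraries and lower in 3 (exact two-sided sign-flip test, p = 0.656). Outside mitosis, S phase genes were lower in 4 of 33 (against 7.67% of all genes) and higher in 0, with a median of -0.20. By library the median was -0.03, 0.30 and -0.03 with Dox and -0.46, -0.13 and -0.67 without, at 0, 19 and 30 h. Mcm10, a replication initiation factor, fell by 1.08. Histone genes were lower in 6 of 17 and higher in 1, with a median of -0.34, and many are not polyadenylated, which a 3' kit captures poorly. A list of quiescence and CDK inhibitor genes was lower in 4 of 17 and higher in 1, where 7.67% of all genes were lower and 12.1% higher. After removal of every cell with 3 or more UMIs of the S or G2 to M lists, 28 to 159 cells were left per group and library, and the SRF and actin list still had 20 of 33 genes higher and 0 lower, with a median of 0.33. The contractile list then had 6 of 8 tested genes higher and 1 lower, where 419 of all 8820 tested genes were higher and 211 lower. The G2 to M list had 0 of 7 tested genes called. That count cannot be read as a result, because the UMIs of these genes chose the cells to remove.

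**Figure D4:**
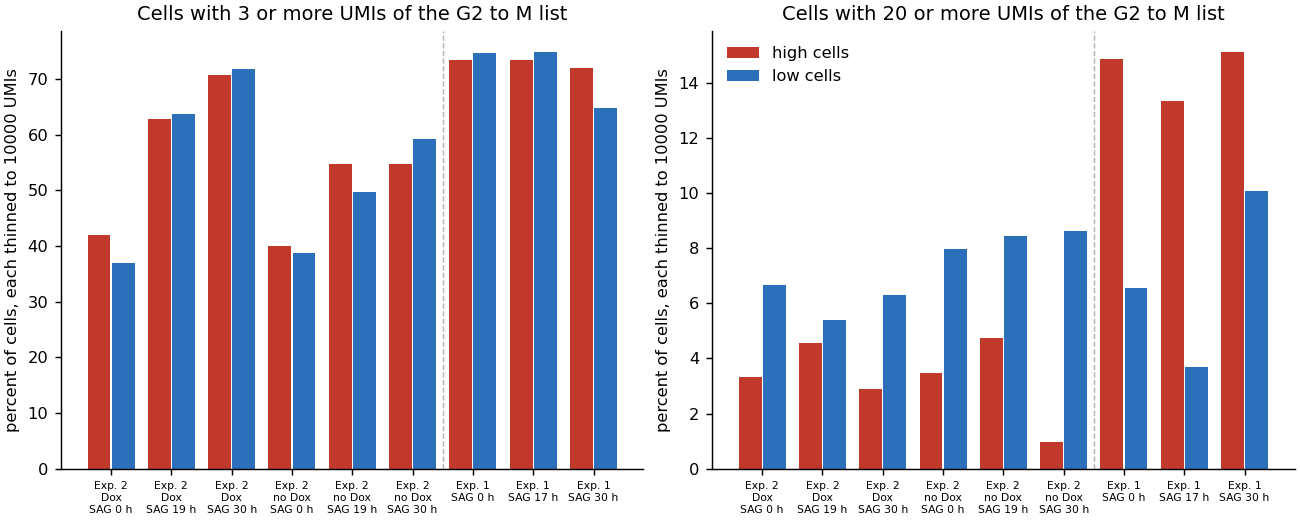
Percent of high (red) and low (blue) cells, each thinned to 10000 UMIs, that held at least 3 (left) or at least 20 (right) UMIs of the G2 to M list, in each of the 9 libraries. At 20 UMIs the high cells lie below the low cells in the 6 libraries of Experiment 2 (0.978% to 4.75% against 5.38% to 8.61%) and above them in the 3 of Experiment 1 (13.3% to 15.1% against 3.70% to 10.1%). The high and low cells were chosen before thinning, and those of Experiment 1 differed in depth.

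Genes of energy and sterol metabolism were compared next, with counts to be read against the 12.1% higher and 7.67% lower of all genes. Cholesterol synthesis genes were higher in 21 of 23 tested members and lower in 0, with a median of 0.27. Hsd17b7, an enzyme of the late pathway, had 44.7, 48.5 and 56.0 CPM in high cells, against 28.7, 32.3 and 41.0 CPM in low cells (log2 0.56, adjusted p = 9.17e-05), and Sc5d was at 0.45. Nuclear genes of oxidative phosphorylation were higher in 20 of 28 and lower in 0, with a median of 0.14. Glycolysis and hypoxia genes were higher in 12 of 22 and lower in 1, with a median of 0.20 and the glycolytic Gapdh at 0.25. Protein-folding genes of the endoplasmic reticulum were higher in 8 of 20, with the chaperone genes Manf at 0.31 and Calr at 0.24. Ribosomal protein genes were lower in 3 of 40, close to the 7.67% of all genes, with a median of -0.013. The genes encoded in mitochondrial DNA were lower in 5 of 13, with a median of -0.08. As a share of a cell's UMIs, ribosomal protein genes made up 34.3% ± 4.15 in high and 35.5% ± 4.88 in low cells (mean over libraries of the median over cells, SD, n = 6 each). That share was lower in high cells in 6 of 6 libraries (exact two-sided sign-flip test, p = 0.03125, the smallest that 6 pairs allow, and 0.125 after adjustment over 4 measures). By the same measure, mitochondrial UMIs made up 6.38% ± 1.2 in high and 6.93% ± 0.850 in low cells, lower in 4 of 6 (exact p = 0.125, adjusted 0.167). Cells under 1% mitochondrial UMIs made up 11.4% ± 10.8 of high and 8.77% ± 8.30 of low cells, higher in 5 of 6 (exact p = 0.0625, adjusted 0.125).

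Other lists are given by their counts, to be read against the 12.1% higher and 7.67% lower of all genes. Immediate early genes were higher in 11 of 23 and lower in 2, with the phosphatase gene Dusp1 at 0.52, Junb at 0.31 and Klf4 at -0.24. NF-kB and chemokine genes were higher in 3 of 13, namely the cytokine gene Csf1 (0.48), Ptgs2 (0.86), which makes prostaglandins, and Vcam1 (0.28). Interferon-stimulated genes were higher in 6 of 20, among them Isg15 at 0.64. Adipogenic genes were higher in 6 of 10, with the fatty acid binding protein genes Fabp4 at 0.82 and Fabp5 at 0.58. General mesenchymal genes were higher in 10 of 24 and lower in 2. Heat shock genes were higher in 3 of 12 and lower in 1, Wnt pathway genes higher in 2 of 6 (the ligand genes Wnt5a and Wnt9a, named after their values were seen), and BMP genes higher in 1 of 11 and lower in 1. Targets of ATF4, the transcription factor of the amino acid response, were higher in 2 of 18. The shares for the ATF4 and BMP lists lie near those of all genes.

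The Hedgehog pathway, which SAG switches on, was compared through its component genes and its readouts. Among components, 0 of 29 tested genes were higher and 1, the ubiquitin ligase adaptor Spop, was lower by 0.20 (all genes, 12.1% higher and 7.67% lower). When Tagln alone divided the cells, 2 components were higher and 7 lower. In that division 1931 of all 11886 tested genes were higher and 1324 lower. Gli1, the transcription factor induced by the pathway, was at 0.198, 16.9 and 24.7 CPM in high cells with Dox at 0, 19 and 30 h, against 0, 18.7 and 21.7 CPM in low cells. Without Dox it was at 0, 8.0 and 16.8 CPM in high cells, against 0.141, 8.20 and 13.4 CPM in low cells. Gli1 differed far more between SAG times than between high and low cells of 1 library, and its log2 difference was 0.10 (SE 0.09, adjusted p = 0.505). Ptch1, the Hedgehog receptor and a target of the pathway, was at 3.86, 59.8 and 89.6 CPM in high cells with Dox, against 3.62, 70.1 and 83.2 CPM in low cells. Without Dox it was at 3.44, 28.3 and 55.9 CPM, against 3.24, 28.3 and 43.7 CPM (log2 0.06, SE 0.07, adjusted p = 0.583). Divided by Tagln alone, Ptch1 was lower in Tagln-high cells (log2 -0.35, adjusted p = 9.42e-05), and divided by Acta2 alone it was at 0.23 (adjusted p = 0.099). Gli2 was at log2 -7.17e-05 (SE 0.10) and the added feature GFP_g1, which the labels do not describe, at -0.016 (SE 0.08). Divided by Tagln alone, both were lower in Tagln-high cells, Gli2 at -0.20 (adjusted p = 0.0432) and GFP_g1 at -0.36 (adjusted p = 0.000568). A division by Acta2 alone gave 0.10 (adjusted p = 0.52) for Gli2 and 0.043 (adjusted p = 0.786) for GFP_g1. The calls thus differed with the gene that divided the cells, and a p above the threshold does not show equal levels. A list of Hedgehog target genes had 6 of 17 tested genes higher and 1 lower, with a median of 0.13, where 12.1% of all genes were higher and 7.67% lower. In that list Igf1, an insulin-like growth factor, was at 1.47 on 509 UMIs in high and 184 in low cells, and Scara5, a ferritin receptor, was at -0.96.

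**Figure D5:**
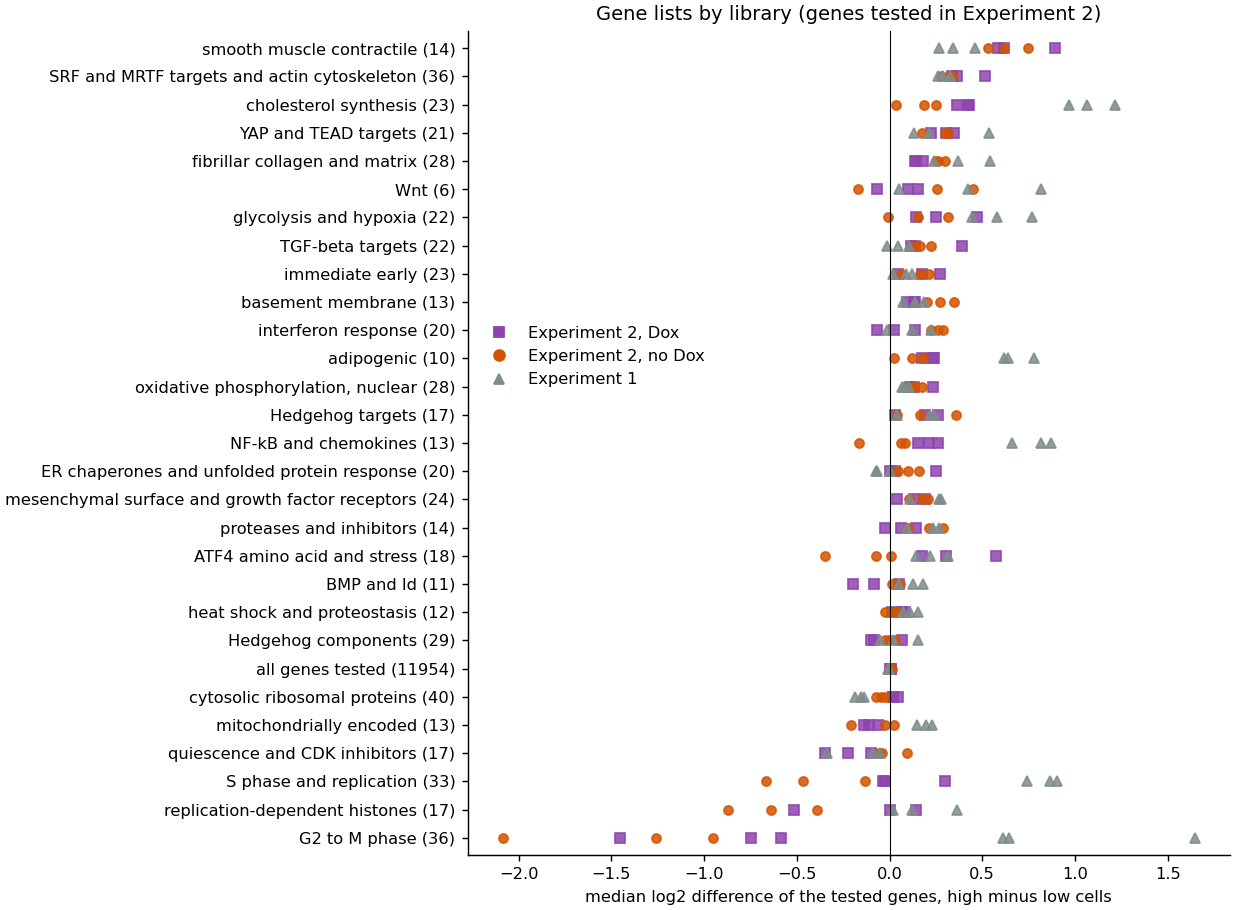
Median log2 difference of high minus low cells over the tested genes of each list, 1 point per library, with Dox libraries as purple squares, no Dox libraries as orange circles and Experiment 1 as grey triangles. The contractile and the SRF and actin lists lie above 0, and the G2 to M list lies between -0.59 and -2.09 in Experiment 2 and between 0.61 and 1.65 in Experiment 1. The Experiment 1 rise of that list shrank within depth classes and with thinned cells.

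The difference between high and low cells itself varied with Dox. In a fit with terms for Dox and SAG time, which left 2 residual degrees of freedom, the high minus low change was larger with Dox for 502 genes (4.20%) and smaller for 310 (2.59%). Larger and smaller refer here and below to the signed value. A gene that is lower in high cells can thus have a larger change through a smaller fall. DESeq2 gave 116 calls, and the fit without library 0, where 301 and 188 genes had an unadjusted p under 0.05. Ccnd1, the gene of cyclin D1, had log2 differences of 0.14, 0.57 and 0.32 with Dox at 0, 19 and 30 h, against -0.74, -0.22 and -0.81 without, a difference of 0.95 (SE 0.08, adjusted p = 1.2e-09). Ankrd1, a YAP target, had 0.79, 0.50 and 0.92 with Dox, against 0.08, 0.01 and -0.41 without (difference 0.84). Among ATF4 targets the change was larger with Dox for 15 of 18, with a median difference of 0.49, and among S phase genes for 16 of 33, with a median of 0.55. In the 3 no Dox libraries alone, 19 S phase genes were lower in high cells, where 752 of all 11864 tested genes were lower. In the 3 Dox libraries alone 0 were, where 608 of all 12124 tested genes were lower. Fibrillar matrix genes went the other way, with a smaller change under Dox for 13 of 28 and a median difference of -0.15. Lox, the enzyme that cross-links collagen, had -0.22, -0.01 and 0.10 with Dox, against 0.54, 0.45 and 0.76 without (difference -0.62).

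The high minus low change was also compared between SAG times. Against 0 h, the high minus low change was larger at 19 h for 17 genes (0.142%) and smaller for 10 (0.0837%), and DESeq2 gave 0 calls; the fit without library gave 0, with 91 and 66 genes at an unadjusted p under 0.05. At 30 h it was larger for 89 genes (0.745%) and smaller for 269 (2.25%), where the fit without library gave 0, with 133 and 124 at an unadjusted p under 0.05. Thbs1 had log2 differences of 0.75, 1.15 and 1.46 with Dox at 0, 19 and 30 h and of 1.32, 1.57 and 1.96 without, so the gap was wider at later times in both arms (30 h against 0 h, 0.68). Glycolysis and hypoxia genes had a smaller change at 30 h for 15 of 22, with a median difference of -0.36. Gapdh went with them, at 0.46, 0.28 and 0.08 with Dox and 0.39, 0.25 and 0.05 without. Higd1a, a hypoxia-induced mitochondrial protein, had 1.16, 0.41 and 0.37 with Dox and 0.68, 0.38 and 0.17 without.

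Experiment 1 gave a second set of libraries to which the rule was applied in the same way, with 503 high and 503 low cells of 2019 kept cells. Its range was narrower, with medians of 2.99, 2.31 and 2.85 Acta2 and Tagln UMIs per 10000 in high cells at 0, 17 and 30 h and of 0 in low cells. When Tagln alone divided these cells, Acta2 was at log2 2.91 (SE 0.07, adjusted p = 3.63e-14), and when Acta2 alone did, Tagln was at 0.84 (SE 0.09, adjusted p = 2.72e-06). Thinned to 10000 UMIs, 25.4%, 19.2% and 19.7% of kept cells held Acta2, and ties went to the cell with more UMIs. Acta2-low cells summed to 8594208, 5930700 and 7350435 UMIs, against 7738319, 4889357 and 6117732 in Acta2-high cells. The part of this depth in the value for Tagln was not tested. Of 10468 genes tested, 1569 were higher in high cells (15.0%) and 1373 lower (13.1%). Of the 1452 genes higher in Experiment 2, 1353 were tested here, 614 were also called higher (42.3% of the Experiment 2 list and 39.1% of the Experiment 1 list) and 70 were called lower. Of the 917 lower genes, 870 were tested, 229 were also called lower (25% and 16.7%) and 135 were called higher. High cells of Experiment 1 had more UMIs than low cells in each library, by 3949, 3607 and 6434 in median, which was not so in Experiment 2, and the part of depth in these calls was examined only by thinning and by applying the rule within 5 depth classes of each library.

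Several contractile and actin genes were higher in both experiments. Cnn2 was at log2 1.18 in Experiment 1, Actb at 1.01, Myl6 at 0.81, Actg1 at 0.69, Tpm1 at 0.46 and Thbs1 at 1.57. Myl9 was too rare there to be tested, with 27, 8 and 23 UMIs in high cells and 2, 1 and 0 in low cells. The SRF and actin list had 20 of 34 tested genes higher (against 15.0% of all genes) and 0 lower, with a median of 0.29. The contractile list had 4 of 9 tested genes higher and 0 lower, with a median of 0.39. Smooth muscle and myofibroblast markers had 0 of 2 tested genes called, and their summed level was higher in high cells in 1 of 3 libraries. Tpm1 and Actg1 rose more in Experiment 2, with differences of 0.67 for Tpm1 (adjusted p = 5.2e-05) and 0.26 for Actg1 (adjusted p = 0.0105) in a fit of all 9 libraries that was added after the data were seen. In that fit 851 of 11534 genes had a larger change in Experiment 2 (7.38%) and 840 a smaller one (7.28%). The experiments also differ in software version and feature set, which cannot be told apart from the experiment.

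Genes of mitosis and sterol synthesis, and Ccl2, differed between the experiments. In Experiment 1, 35 of 36 G2 to M genes were higher in high cells (against 15.0% of all genes), with a median of 0.81. When the rule was applied within 5 depth classes, 12 were higher and 1 lower (median 0.19). There 1239 of all 10464 tested genes were higher and 1124 lower. With thinned cells, 1 of 35 was higher and 1 lower (median 0.05), where 343 of all 8217 tested genes were higher and 153 lower. In Experiment 2 the same settings gave 32 and 30 lower genes, with medians of -1.22 and -0.99. Of all genes tested in these settings, 976 of 11947 and 341 of 10248 were lower. The change was lower in Experiment 2 for 35 of 36 G2 to M genes (against 7.28% of all genes), with a median difference of -2.02. Within the depth classes it was lower for 33, with a median of -1.42, where 600 of all 11536 genes were lower. Ccl2, a chemokine gene, was at 169, 37.0 and 26.8 CPM in high cells with Dox, against 145, 30.8 and 24.3 CPM in low cells, and at 78.9, 44.2 and 15.5 CPM without Dox, against 73.2, 31.7 and 17.4 CPM (log2 0.18, SE 0.06, adjusted p = 0.0527). Divided by Acta2 alone, it passed the test (log2 0.33, adjusted p = 0.00262). In Experiment 1 it was at 200, 46.4 and 78.8 CPM in high cells, against 40.1, 13.7 and 10.7 CPM in low cells (log2 2.35, SE 0.10, adjusted p = 1.5e-14), and the change was lower in Experiment 2 by 2.15. In the whole list of NF-kB and chemokine genes the change was smaller in Experiment 2 for 3 of 13 and larger for 1 (all genes, 7.28% smaller and 7.38% larger). Ccnd1 was at log2 3.03 in Experiment 1 and -0.05 in Experiment 2, a difference of -3.07 (SE 0.42, adjusted p = 0.000119), and Sox9, a transcription factor of chondrocytes, at 1.05 and -0.49. Cholesterol synthesis genes were higher in 21 of 23 in Experiment 1 as well (against 15.0% of all genes), but with a median of 1.02. The change was lower in Experiment 2 for 21 of 23 (against 7.28% of all genes), with a median difference of -0.75. Ribosomal protein genes were lower in high cells for 38 of 40 in Experiment 1 (against 13.1% of all genes), with a median of -0.16. High cells of Experiment 1 were deeper than its low cells, and depth-matched values are given here for the G2 to M list only.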

How the data were processed

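Gene by cell matrices of whole-number UMI counts were deposited per library, with no normalization by the authors. Per the submitters' processing notes they were made with Cell Ranger against mm10, and per the file headers with version 3.1.0 in Experiment 1 (31054 features) and 6.0.1 in Experiment 2 (32286 features). Whether counting used strand is not given in the sources used here, so Tagln and Pcsk7, which overlap on opposite strands, and similar pairs cannot be told apart.

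The cells, gene lists and tests were chosen with earlier results of these data known. Ties at a boundary went to the cell with more UMIs, and a cell with 0 UMIs of both genes was never high. UMIs were summed over the high and the low cells of each library without Acta2 and Tagln and tested with edgeR 4.0.16 in R 4.3.3 (filterByExpr, TMM, quasi-likelihood, library as a term, Benjamini-Hochberg over all tested genes). Since high and low cells came from the same library, the replicate block is the library itself and the pairing comes from the design. Log2 differences per library used a prior count of 2. Per-library shares were compared with an exact two-sided sign-flip test over 6 libraries (numpy 2.4.6). The procedure was tested on simulated data. DESeq2 1.42.0, other scalings, filters, depths and divisions of the cells were alternatives. No doublet caller was run; leaving out the 5% of cells with the most UMIs was an alternative. Free RNA was not removed, and its part in the UMIs of low cells was not tested.

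The text names the 14 largest rises and 14 largest falls among called genes with at least 10 CPM and the same direction in 6 libraries, 8 genes named in the rule, up to 4 genes per list in order of p and up to 4 per direction of each difference. Some genes that this rule names are not reported here. Other genes are said to be chosen after their values were seen. Promoter windows and their coordinates are from RefSeq (GRCm38.p6). Comparing levels of different genes in these 3' counts carries no correction for length.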

Additional observations from a re-analysis of the deposited data

Results flagged for a closer look

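In 7 genes 1 library of Experiment 2 lay far from the other 5 in its log2 difference of high minus low cells, by Dixon's criterion at the 95% level; chance alone gives this for about 5% of values, and 149 were examined. In the Dox library at 0 h, Mgp was at 1.83 (others 1.21 to 1.43) and Sdc2, a syndecan, at 0.63 (others 0.28 to 0.39). In the no Dox library at 0 h, Col11a1 was at 0.088 (others 0.79 to 1.06) and Lmod1 at 4.26 (others 1.58 to 2.57). The no Dox library at 19 h had Nexn at 0.63 (others 0.90 to 1.03). In the no Dox library at 30 h, Nusap1 was at -2.47 (others -1.42 to -0.96) and Sc5d at 0.14 (others 0.49 to 0.56).

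The high minus low change differed between Dox and no Dox libraries for Ccnd1 (0.95), Eif4ebp1 (0.45), Atf5 (0.51) and Ankrd1 (0.84), which had the higher signed value with Dox, and for Lox (-0.62), Adamts5 (-0.58), Malat1 (-0.31) and Aebp1 (-0.46), which had the lower. Eif4ebp1 and Atf5 are targets of ATF4, and Lox, Adamts5 and Aebp1 act in the extracellular matrix. At 19 h against 0 h the signed change was larger for Egr1 (0.71), Thbd (0.55), Cdc20 (1.04) and Sat1 (0.55) and smaller for Higd1a (-0.49), Igfbp7 (-0.49), Gfod2 (-0.94) and Csrp1 (-0.67). For Cdc20, which is among the largest falls, this means a smaller fall at 19 h. At 30 h against 0 h the signed change was larger for Thbs1 (0.68), Thbd (0.83), Sat1 (0.76) and Ogn (0.64) and smaller for Spp1 (-0.59), Cryab (-0.52), Gapdh (-0.35) and Higd1a (-0.61). These values come from 1 library per combination of Dox and time.

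Between Experiment 2 and Experiment 1 the change was larger in Experiment 2 for Cemip (1.57), Tpm1 (0.67), Actg1 (0.26) and Mustn1 (0.62) and smaller for Vgll3 (-0.69) and Ccl2 (-2.15). It was lower in Experiment 2 for each of the 14 largest falls: Cenpe (-2.50), Hmmr (-2.37), Nusap1 (-2.12), Mki67 (-2.22), Cdc20 (-2.49), Prc1 (-2.16), Kif20b (-1.88), Cenpa (-1.97), Anln (-2.17), Ube2c (-1.62), Pimreg (-2.85), Lockd (-1.80), Pttg1 (-1.65) and Cenpf (-1.95). These 14 genes were chosen for their falls in Experiment 2, and Cemip, Tpm1, Actg1 and Mustn1 for their rises there. The choice itself thus favoured gaps of these directions. The cell filter, kit and rule were the same, and the software version and feature set were not. High cells of Experiment 1 were also deeper than its low cells. Its G2 to M rise shrank within depth classes and with thinned cells, as given above.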

How the results depend on the processing

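For Experiment 2 the count of genes past the threshold was 2369. It was 1545 with DESeq2 and 78 with no replicate block, where 330 genes were higher and 349 lower at an unadjusted p under 0.05. It was 1032 with thinned cells, 630 without cells with 3 or more S or G2 to M UMIs and 1351 when Acta2 alone divided the cells. Leaving out 1 library at a time gave 1612 to 2537. The share of calls that were higher was 61.3%, against 48.3% with plain library totals (1182 higher, 1266 lower) and 73.3% with DESeq2. In Experiment 1 the count of 2942 became 873 with DESeq2, 376 with no replicate block and 496 with thinned cells, and 2157 to 2459 without 1 library. The Dox difference (812 calls) became 116 with DESeq2, 0 with no replicate block and 107 with thinned cells, and 266 to 776 without 1 library. At 19 h against 0 h, 27 calls became 75 with no low-count filter and 0 with DESeq2, with no replicate block and with thinned cells, and 14 to 131 without 1 library. At 30 h, 358 calls became 73 with DESeq2, 0 with no replicate block and 17 with thinned cells, and 140 to 553 without 1 library. The difference between experiments (1691 calls) gave 1010 to 1757 without 1 library, the lowest without Experiment 1 at 0 h. The other planned settings kept these counts within 1.5 times.

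Tagln under Acta2 and Acta2 under Tagln kept their calls in every setting run, at 2.36 to 2.59 and 2.92 to 3.15 without 1 library and at 2.01 and 2.50 with thinned cells. The share of cells with 3 or more G2 to M UMIs, 0.83 percentage points higher in high cells, turned to -0.112 with thinned cells and -1.04 with the rule applied within 5 depth classes, and ran from -0.0333 to 1.89 without 1 library. Over 137 genes and all settings, 2710 values kept their direction and side of the threshold, 362 lost the call, 8 gained it and 28 changed sign. The changes of sign were in genes whose reported value was under 0.5 either way: Gli1 -0.10 without cycling cells and -0.13 by Tagln alone; Ptch1 -0.019 thinned, -0.031 to 0.17 without 1 library (lowest without no Dox at 30 h), -0.35 by Tagln alone and -0.056 in Dox libraries alone. Gli2 was at 0.0095 with RLE, 0.059 thinned, -0.097 to 0.071 without 1 library, 0.039 within depth classes, 0.042 without the 5% of cells with the most UMIs, 0.10 by Acta2 alone and 0.13 in no Dox libraries alone. GFP_g1 was at 0.023 with DESeq2, -0.13 to 0.063 without 1 library, 0.041 within depth classes, 0.0046 with a minimum of 5000 UMIs, 0.00906 without cells under 1% mitochondrial UMIs, 0.014 without the 5% deepest cells, 0.043 by Acta2 alone and 0.060 in no Dox libraries alone. By Tagln alone both kept their sign and became calls, Gli2 at -0.20 (adjusted p = 0.0432) and GFP_g1 at -0.36 (adjusted p = 0.000568). Ccl2 was at -0.028 thinned and -0.085 by Tagln alone, and Egr1 at -0.070 without cycling cells. The cause of these shifts was not tested, except that thinning and removing cells leave fewer UMIs. Depth limits rare genes: Fhl1, Lmod1, Actg2 and Myl9 rest on few UMIs in low cells, and UMI counts cover counting error only.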
